A study of Rattus norvegicus with 74 samples.

Results

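MicroRNAs (miRNAs) named for their abundance in heart and skeletal muscle were followed in whole kidney of untreated F344 rats, an inbred strain, of both sexes at 8 ages. The members were chosen by name alone and comprise both arms of miR-1, miR-133a, miR-133b, miR-206, miR-208a, miR-208b and miR-499, which are 14 of the 677 miRNAs on the array. The array lists them with the rat prefix (rno-miR-499-5p, rno-miR-206-3p, rno-miR-133b-3p, rno-miR-133a-3p, rno-miR-1-3p and so on), which is left out below. The youngest animals of each sex were 2 weeks old and the oldest 104 weeks, with groups of 5, 6, 8, 15, 21 and 78 weeks in between. Each of the 74 single-colour arrays (36 female, 38 male) held total RNA of 1 animal, and each of the 16 groups of age and sex had 4 or 5 arrays. The comparisons asked which of these miRNAs are present in kidney, whether they differ between the sexes or with age, and whether they vary together. Their presence in kidney is a description, because earlier results of these data were known when they were chosen.

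These miRNAs are often called myomiRs. MiR-208a, miR-208b and miR-499 lie within myosin heavy chain genes and are known from the heart, where they take part in a network that controls myosin content. MiR-1 and miR-133a are made together from the same transcripts in heart and skeletal muscle, and miR-206 and miR-133b are made together in skeletal muscle. MiR-1 and miR-206 are known to promote differentiation of muscle precursors, and miR-133 their proliferation. None of them is a defining miRNA of a kidney cell type.

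The mature sequences of the 4 detected members are shown, with those of undetected members of the miR-208 family that resemble miR-499-5p or miR-208a-5p at their 5′ ends. Capitals mark the seed, bases 2 to 8 counted from the 5′ end, which pairs with target mRNAs. RefSeq (GRCr8) held 13 of the 14 members, all but miR-206-5p.
miR-499-5p: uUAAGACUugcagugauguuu
miR-208a-3p: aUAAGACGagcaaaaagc
miR-208b-3p: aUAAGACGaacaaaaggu
miR-208a-5p: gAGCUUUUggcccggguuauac
miR-208b-5p: aAGCUUUUugcucgcguuau
miR-206-3p: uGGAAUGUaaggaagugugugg
miR-133b-3p: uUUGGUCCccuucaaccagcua

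MiR-499-5p shares bases 2 to 7, but not base 8, with miR-208a-3p and miR-208b-3p. MiR-206-3p has the seed of miR-1-3p, from which it differs by A11G, A21G and U22G (the base of miR-1-3p first, positions from the 5′ end). MiR-133b-3p has the seed of miR-133a-3p and differs from it by G22A alone. MiR-208a-5p shares its seed with miR-208b-5p and with no other miRNA of the array that RefSeq held.

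By the RefSeq annotation, miR-499-5p is at chr3:164570616-164570636 on the plus strand, within the myosin gene Myh7b. MiR-208a-5p is at chr15:32395599-32395620 on the minus strand, within Myh6, the alpha cardiac myosin heavy chain gene. Mir208b lies within Myh7, the beta cardiac myosin heavy chain gene. MiR-206-3p at chr9:30590747-30590768 and miR-133b-3p at chr9:30594629-30594650 are both on the plus strand, within the same annotated gene (LOC120094648), with 3823 bases between miR-206-3p and miR-133b-5p. Mir1 and Mir133a1 are both within Mib1 on chromosome 18.

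All values below are total gene signals, the scanner software's background-subtracted intensity of a miRNA, divided by the array's 75th percentile over the 311 miRNAs that at least 1 array detected. A scaled signal of 1 therefore equals that percentile, which ranged from 81.2 to 283 signal units (median 156). The arrays detected 190 to 264 miRNAs each (median 232), and the lowest detected signal of an array, taken here as its detection limit, was 0.0071 to 0.0270 after scaling (median 0.0126). Levels are compared between groups for 1 miRNA at a time, since probes differ in brightness. There were 10 slides. Of these, 5 held the animals of 8 weeks or younger, and the others held the animals of 15 weeks or older except for 1 female of 15 weeks, so differences between the younger and the older set of ages cannot be told apart from differences between slides. Both sexes of an age shared slides. The RNA came from bulk tissue, in which fewer cells of a type and less RNA per cell cannot be told apart.

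Of the 14 members, 4 were detected on at least 1 array. MiR-499-5p and miR-133b-3p were detected on 74 of 74 arrays. MiR-206-3p was detected on 17 of 74, of which 12 were male and 5 female, and miR-208a-5p on 11 of 74, of which 11 were female and 0 male. The same numbers of arrays had a signal of at least 3 times the software's error.

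**Figure D1:**
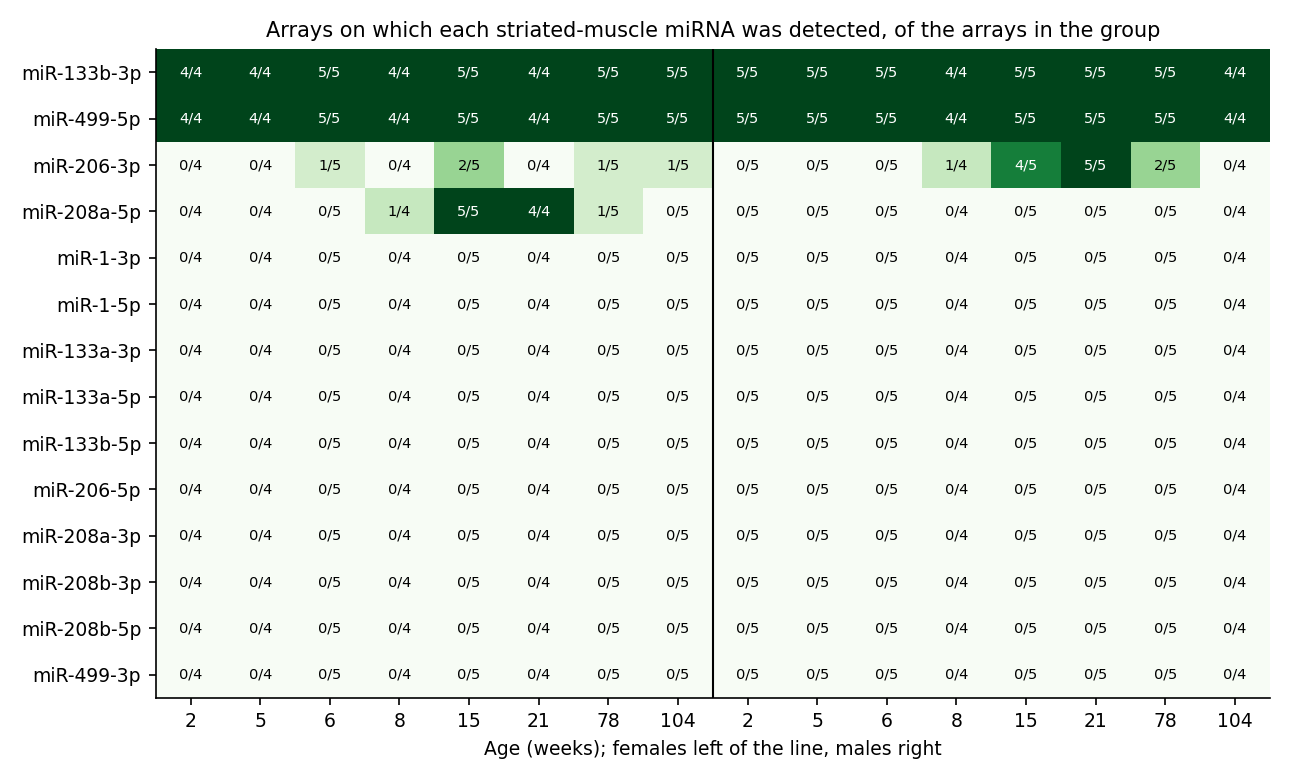
Number of arrays on which each of the 14 striated-muscle miRNAs was marked as detected (first number), of the arrays in the group (second number), by age in weeks on the horizontal axis, with females left of the line, males right of it, and darker green for a larger share. MiR-499-5p and miR-133b-3p were detected in every animal, miR-208a-5p in all females of 15 and 21 weeks and in no male, and miR-206-3p in all males of 21 weeks.

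The other 10 were detected in 0 of 740 values. These are both arms of miR-1, miR-133a and miR-208b, together with miR-133b-5p, miR-206-5p, miR-208a-3p and miR-499-3p, each at the value of 0.1 signal units that the software gives to undetected miRNAs. Their probes show how far below detection they lay. The highest scaled total of any miR-1-3p probe was 0.0251, inside the range of the arrays' detection limits, and the higher of its probe medians was 0.00936. The highest for miR-133a-3p was 0.00578, with a median of -0.0019, and every miR-208a-3p probe total was below 0 after background subtraction (highest -0.00551). MiR-1 and miR-133a, which are abundant in heart and skeletal muscle, were thus not detectable in these kidneys at the sensitivity of the array. MiR-208a-3p, the arm that is usually reported in heart, was below background in the same females in which the opposite arm was detected.

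MiR-499-5p was the member with the broadest change. It rose from 2 to 5 weeks in both sexes, went on rising in females until 21 weeks and stayed level in males. In 2-week females the 4 scaled signals were 0.178, 0.230, 0.241 and 0.233, and in 2-week males the 5 were 0.138, 0.149, 0.180, 0.112 and 0.129. The sexes overlapped there by 1 array on each side. At 15 weeks the females were at 0.772, 1.07, 0.897, 0.872 and 1.04 and the males at 0.480, 0.444, 0.394, 0.386 and 0.371, with no overlap. At 21 weeks the females were at 1.01, 1.04, 1.03 and 1.05 and the males at 0.406, 0.481, 0.429, 0.413 and 0.398, again with no overlap.

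**Figure D2:**
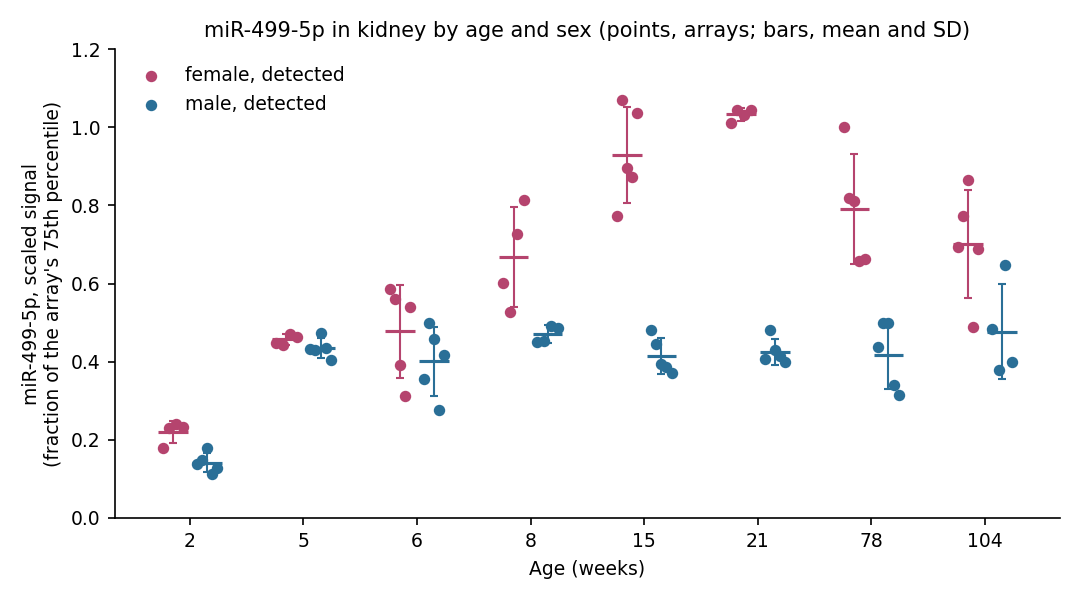
Scaled signal of miR-499-5p (fraction of the array's 75th percentile) against age in weeks, with 1 point per array, females in red and males in blue, and bars for the mean and SD of each group. Female means climb from 0.220 at 2 weeks to 1.03 at 21 weeks, while male means lie between 0.401 and 0.477 from 5 weeks onwards.

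Mean scaled signals of miR-499-5p (± SD) in females were 0.220 ± 0.0284 at 2 weeks (n = 4), 0.667 ± 0.128 at 8 weeks (n = 4), 0.930 ± 0.123 at 15 weeks (n = 5), 1.03 ± 0.0156 at 21 weeks (n = 4), 0.790 ± 0.140 at 78 weeks (n = 5) and 0.702 ± 0.139 at 104 weeks (n = 5). In males they were 0.142 ± 0.0254 at 2 weeks (n = 5), 0.471 ± 0.0219 at 8 weeks (n = 4), 0.415 ± 0.0457 at 15 weeks (n = 5), 0.426 ± 0.0331 at 21 weeks (n = 5), 0.417 ± 0.0866 at 78 weeks (n = 5) and 0.477 ± 0.122 at 104 weeks (n = 4). The females of 15, 21 and 78 weeks were all above the males of their age. The sexes were closest at 5 weeks, with 0.457 ± 0.0135 in females (n = 4) and 0.435 ± 0.0246 in males (n = 5).

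Sex differences were tested with limma on log2 scaled signals, male minus female at each age, with undetected and very low values raised to a common floor of 0.0171. A difference was called at a Benjamini-Hochberg adjusted p under 0.05, over the 311 miRNAs, and a fold of at least 1.5. MiR-499-5p was lower in males by 1.16 on the log2 scale at 15 weeks (SE 0.152, 2.24-fold, adjusted p = 3.94e-08), by 1.28 at 21 weeks (SE 0.162, 2.43-fold, adjusted p = 4.53e-09) and by 0.93 at 78 weeks (1.90-fold, adjusted p = 3.98e-06). These 3 differences were called. On the slides that held both sexes, the female was higher on 4 of 4 slides at 15 weeks, 4 of 4 at 21 weeks and 5 of 5 at 78 weeks.

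The other ages gave smaller differences of miR-499-5p. At 104 weeks the difference was 0.57 on the log2 scale (1.48-fold, adjusted p = 0.00642), which missed the fold threshold, although the female was higher on 4 of 4 slides and the difference was called with slide as a fixed block (0.61 on the log2 scale). At 8 weeks the groups did not overlap, but the difference of 0.48 had an adjusted p of 0.128. At 5 and 6 weeks it was 0.07 and 0.24 and was not called. At 2 weeks miR-499-5p was called as lower in males by 0.65 (SE 0.162, 1.56-fold, adjusted p = 0.00333). That call rests on how 1 array was summed: on the array of male replicate 2 the software had counted only the brighter of the 2 probes, for a scaled signal of 0.149 against 0.195 with both. With both probes on every array the difference was 0.57 (1.48-fold, adjusted p = 0.0163), and without male replicate 4 it was also 0.57, neither of which was called.

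The 2 probes of miR-499-5p gave the same picture separately. Over the 74 arrays their log2 totals correlated at r = 0.994. The sex difference at 21 weeks was -1.22 with one probe and -1.30 with the other on the log2 scale, and at 15 weeks it was -1.04 and -1.20.

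MiR-208a-5p was detected mainly in females of 15 and 21 weeks. The 15-week females were at 0.154, 0.173, 0.189, 0.181 and 0.0583, and the 21-week females at 0.154, 0.238, 0.193 and 0.158. The value of 0.0583 is that of the only 15-week animal whose array was on a slide of the younger ages. Outside these groups it was detected in 1 of 4 females of 8 weeks (0.0465) and in 1 of 5 females of 78 weeks (0.0382), and in 0 of 38 males. On these 2 arrays the software had counted 1 probe alone, while the totals at 15 and 21 weeks were sums of both. With both probes summed, the 8-week female read 0.0804 and the 78-week female 0.0482. The uncounted probe read at most 0.00999 in the 78-week females. Detected totals were 12.0 to 44.3 signal units at 15 and 21 weeks, up to 12.5 times the software's error.

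At 15 weeks the female signal of miR-208a-5p was at least 9.75-fold that of males, and at 21 weeks at least 11.6-fold. Both are lower bounds, because no male array detected the miRNA. Each sets the females' mean log2 signal against the mean, over the male arrays, of the higher of the array's detection limit and the miRNA's own probe total. The limma test at the floor gave adjusted p = 2.79e-21 at 15 weeks and 1.37e-22 at 21 weeks. These p-values do not measure a spread in males, since every male value was the floor itself, and miR-208a-5p was among the 311 tested miRNAs only through the females that detected it. The female was higher on 4 of 4 slides at both ages. Against females of other ages in which no array detected it, the 21-week females were at least 16.4-fold higher than at 2 weeks, 12.3-fold than at 5 weeks, 13.2-fold than at 6 weeks and 12.1-fold than at 104 weeks.

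The summed probe totals of miR-208a-5p, which exist on undetected arrays too, put all females of 15 and 21 weeks above the males of their age. Females of other ages were not all apart: the highest 8-week sum was 0.0804 and the lowest 15-week sum 0.0583. The sums averaged 0.151 ± 0.0535 in 15-week females (n = 5) against 0.00900 ± 0.00583 in males (n = 5), and 0.186 ± 0.0392 in 21-week females (n = 4) against 0.0153 ± 0.00391 in males (n = 5). Two-sided exact permutation tests on these totals gave p = 0.00794 at 15 weeks and p = 0.0159 at 21 weeks, the smallest that groups of these sizes allow, and 0.0635 at both ages after adjustment over the 8 ages. In 8-week females the mean was 0.0364 ± 0.0309 (n = 4), against 0.0138 ± 0.00374 in males (n = 4). The sexes overlapped at that age, and the exact test gave p = 0.143, or 0.254 after adjustment. A limma fit on the sums of both probes did call this difference (0.88 lower in males on the log2 scale, adjusted p = 0.0276). The 2 probes of miR-208a-5p correlated at r = 0.935 over the 11 arrays that detected it.

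MiR-206-3p was highest in males of 15 and 21 weeks, at signals close to the detection limit. The 21-week males were at 0.0314, 0.0360, 0.0410, 0.0338 and 0.0403, and 0 of 4 females of that age were detected. At 15 weeks 4 of 5 males were detected, at 0.0299, 0.0287, 0.0314 and 0.0268, and 2 of 5 females, at 0.0173 and 0.0212. The other detections were in 2 of 5 males of 78 weeks, 1 of 4 males of 8 weeks and 1 of 5 females each at 6, 78 and 104 weeks.

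With limma, miR-206-3p was called as higher in males at 21 weeks (adjusted p = 2.24e-11), by at least 2.46-fold against the limit set by the females. Every female value of that age was the floor itself, so this p-value does not measure a spread in females. At 15 weeks the difference was 0.55 on the log2 scale (adjusted p = 0.000136), a 1.46-fold change at the floor that missed the fold threshold. It was called without female replicate 3 (0.61) or without male replicate 4 (0.70) of that age, and with 6 other settings listed at the end. Among males, the 21-week level was at least 1.87-fold that at 2 weeks, 2.33-fold that at 5 weeks, 1.59-fold that at 6 weeks and 2.39-fold that at 104 weeks. The brighter probe of miR-206-3p overlapped between males of 6 weeks (up to 0.0351) and 21 weeks (from 0.0314).

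The detection mark split a continuous range of miR-206-3p probe signals. On the 17 arrays that detected it, the total came from 1 of its 2 probes on 17. That probe read 0.0162 to 0.0410 on these arrays and 0.00823 to 0.0360 (median 0.0170) on the 57 arrays without the mark, so the ranges overlap. The highest undetected value belongs to male replicate 4 of 15 weeks, the only male of that age without the mark. Read on every array, this probe averaged 0.0144 ± 0.00161 in 21-week females (n = 4) and 0.0365 ± 0.00412 in males (n = 5), a 2.53-fold difference. At 15 weeks it averaged 0.0183 ± 0.00235 in females (n = 5) and 0.0306 ± 0.00348 in males (n = 5), and at 8 weeks 0.0132 ± 0.00369 in females (n = 4) and 0.0248 ± 0.00236 in males (n = 4).

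The sexes did not overlap in this probe at 8, 15 and 21 weeks. Exact two-sided permutation tests gave p = 0.0286, 0.00794 and 0.0159 at these ages, the smallest possible for the group sizes, and 0.0762, 0.0635 and 0.0635 after adjustment over the 8 ages. A limma fit on the sums of both probes called miR-206-3p as higher in males at 6 weeks (0.67 on the log2 scale, adjusted p = 0.0439), 8 weeks (0.84, adjusted p = 0.0104), 15 weeks (0.86, adjusted p = 0.000336) and 21 weeks (1.40, adjusted p = 2.48e-08). It gave 0.10 at 78 weeks and -0.14 at 104 weeks, neither of which was called. In the brighter probe the sexes overlapped at 6 weeks (females 0.0126 to 0.0230, males 0.0165 to 0.0351). The exact two-sided permutation test on that probe gave p = 0.151 at 6 weeks, or 0.302 after adjustment. Limma on the software's totals gave -0.07 at that age, which was not called.

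**Figure D3:**
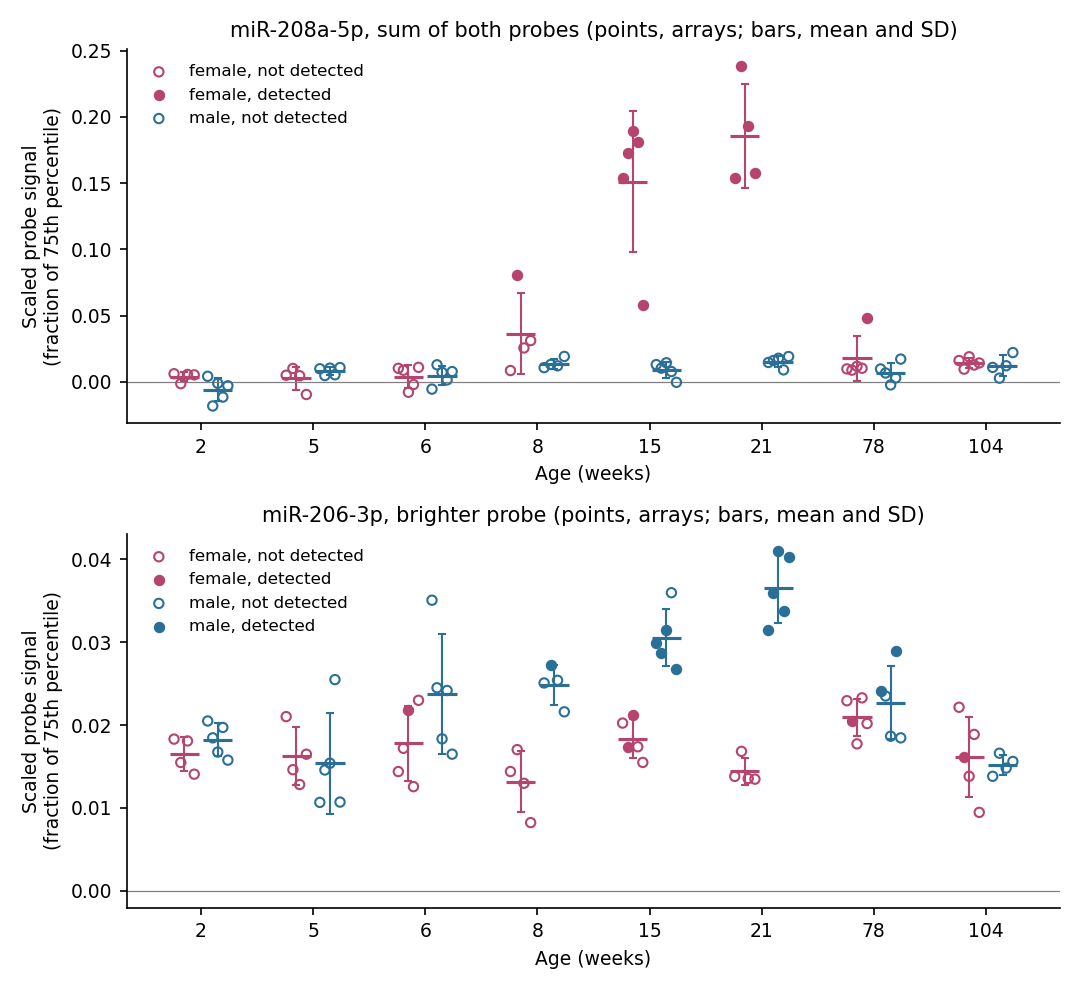
Scaled probe signals (fraction of the array's 75th percentile) of miR-208a-5p (top, sum of both probes) and miR-206-3p (bottom, brighter probe) against age in weeks, with 1 point per array, filled where the miRNA was marked as detected and open where not, females in red, males in blue, and bars for the group mean and SD. MiR-208a-5p stands out in females of 15 and 21 weeks (means 0.151 and 0.186), and miR-206-3p is highest in males of 21 weeks (mean 0.0365), with open and filled points overlapping in height.

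MiR-133b-3p was present at an even level. The software had taken its total from the brighter of its 2 probes alone on 59 arrays and from both on 15. Its group means lay between 0.0818 ± 0.0135 in 78-week females (n = 5) and 0.132 ± 0.0237 in 21-week males (n = 5), and over single arrays it ranged from 0.0538 to 0.168. The 21-week males were at 0.168, 0.145, 0.119, 0.109 and 0.122 and the 21-week females at 0.0931, 0.0863, 0.128 and 0.0864, so that the sexes overlapped at the age of their largest difference. That difference was 0.43 on the log2 scale, higher in males (95% interval 0.08 to 0.78, adjusted p = 0.113), or 0.34 with both probes summed on every array (adjusted p = 0.170), and no sex difference of miR-133b-3p was called at any age. MiR-206-3p and miR-133b-3p, which lie in the same annotated gene, therefore differed in what was called: at 21 weeks the first was called between the sexes and the second was not, a contrast that was not itself tested.

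**Figure D4:**
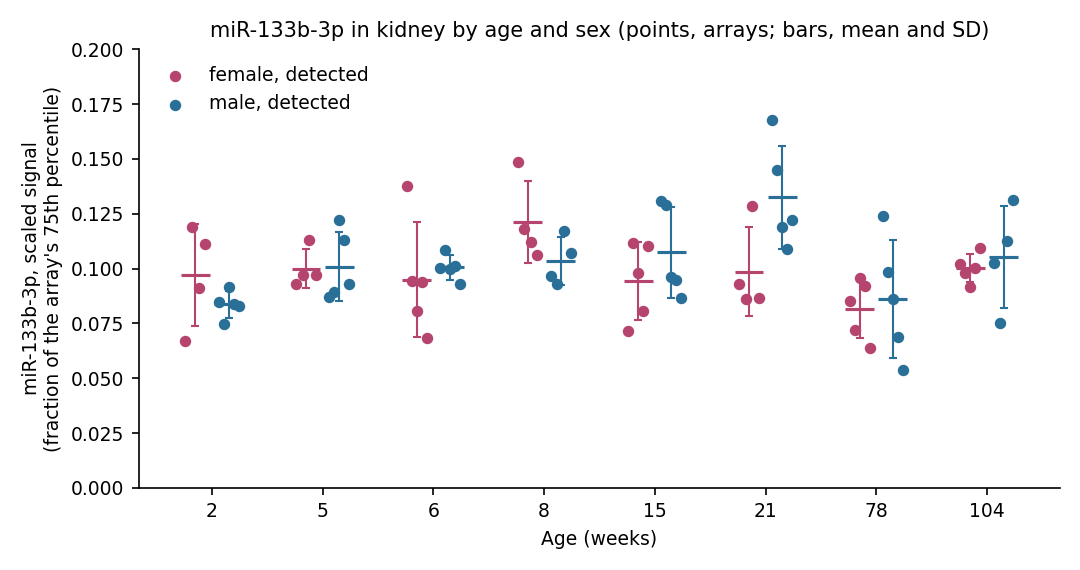
Scaled signal of miR-133b-3p (fraction of the array's 75th percentile) against age in weeks, with 1 point per array, females in red and males in blue, and bars for the mean and SD of each group. The sexes overlap at all 8 ages, and the highest group mean is that of 21-week males (0.132).

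Counting all ages, the members gave 7 sex calls. Of the 4 tested members, 1 was called at 2 weeks, where 3.86% of the 311 miRNAs were called. None was called at 5 weeks (background 0%), 6 weeks (0.322%) or 8 weeks (1.29%). At 15 weeks 2 were called against a background of 3.54%, at 21 weeks 3 against 4.82%, at 78 weeks 1 against 6.75%, and at 104 weeks none against 6.11%. The counts at 15 and 21 weeks include miR-208a-5p, which was tested only because females detected it, so they are no support for the members as a group. The direction was not shared: miR-499-5p and miR-208a-5p were called as higher in females, and miR-206-3p as higher in males. The members that were called belong to different genes on different chromosomes.

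Age effects within a sex were tested by a moderated F test in limma across the 8 ages. In females 2 of the 4 tested members changed with age, where 36.7% of all 311 miRNAs did, and in males 3 of 4, where 45.3% did. The female count includes miR-208a-5p, which was tested only because females detected it, so that count is no support for the members as a group. MiR-499-5p changed in both sexes. In females it rose by 2.24 on the log2 scale from 2 to 21 weeks (4.72-fold, adjusted p = 3.35e-11), and in males by 1.75 from 2 to 8 weeks (3.36-fold, adjusted p = 3.80e-11). Between 2 and 5 weeks it rose 2.09-fold in females and 3.11-fold in males, with no overlap of the ages in either sex. From 21 to 78 weeks the female level was 1.32-fold lower, without overlap.

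The male age effect of miR-499-5p rested on the youngest animals. Without the 2-week animals it was not called in males (adjusted p = 0.717), and within 15 to 104 weeks it was not called in either sex (males adjusted p = 0.824; females 0.0449 with a largest difference of 0.58, just under the fold threshold). When the 16 groups are ordered by miR-499-5p, females of 21, 15, 78, 104 and 8 weeks come first and females and males of 2 weeks last. Only 3 of the 15 steps between neighbours in that order exceeded the larger of both groups' SD: from 8-week females to 8-week males, from 6-week males to 2-week females and from 2-week females to 2-week males.

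MiR-208a-5p was called with age in females (adjusted p = 2.00e-13), where most groups were at the floor, and could not be assessed in males, in which it was never detected. MiR-206-3p changed with age in males (adjusted p = 5.90e-08), while the female test gave an adjusted p of 0.827. All males of 2, 5, 6 and 104 weeks were at the floor, so the male p-value does not measure a spread at those ages. MiR-133b-3p fell by 0.66 on the log2 scale from 21 to 78 weeks in males (1.58-fold, adjusted p = 0.0221), with an adjusted p of 0.255 in females. This call was lost without male replicate 1 (adjusted p = 0.0720) or male replicate 2 (adjusted p = 0.0559) of 21 weeks, without the 2-week animals (adjusted p = 0.112) and with the replicate number as a block (adjusted p = 0.0513).

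Whether the sex difference itself changed with age was tested by the interaction of age and sex. Of the 4 tested members 3 were called, where 27.7% of all 311 miRNAs were: miR-208a-5p (adjusted p = 1.06e-21), miR-206-3p (adjusted p = 5.77e-08) and miR-499-5p (adjusted p = 3.98e-05). MiR-133b-3p was not (adjusted p = 0.442). For miR-208a-5p every male value was at the floor, and for miR-206-3p most groups were, so their p-values do not measure a spread there. MiR-208a-5p was tested only because females detected it, so the count of 3 is no support for the members as a group. For the called members the sex difference was widest at 21 weeks and narrower at 104 weeks.

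Co-variation between animals of the same age and sex could be examined for 1 pair, miR-499-5p and miR-133b-3p, the members that at least 50% of the arrays detected. MiR-133b-3p entered with the software's totals, which came from the brighter probe alone on some arrays and from both probes on others. After removal of the group means, Pearson's r was 0.361 and Spearman's rho 0.369 over 74 arrays (permutation p = 0.00922 and 0.00446 within groups; 1 pair, so the adjusted values are the same). Without the 2 arrays farthest from the median of miR-499-5p, r was 0.320. Within slides, after slide means had also been removed, r was 0.0870 (permutation p = 0.564), so the relation did not hold there. It was 0.469 over the ages of 15 to 104 weeks and 0.230 over those of 2 to 8 weeks, and 0.479 in males and 0.244 in females. Across all 13695 pairs of the 166 miRNAs that every array detected, the median r was 0.0986 and 80.0% of pairs had a lower r than this one.

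**Figure D5:**
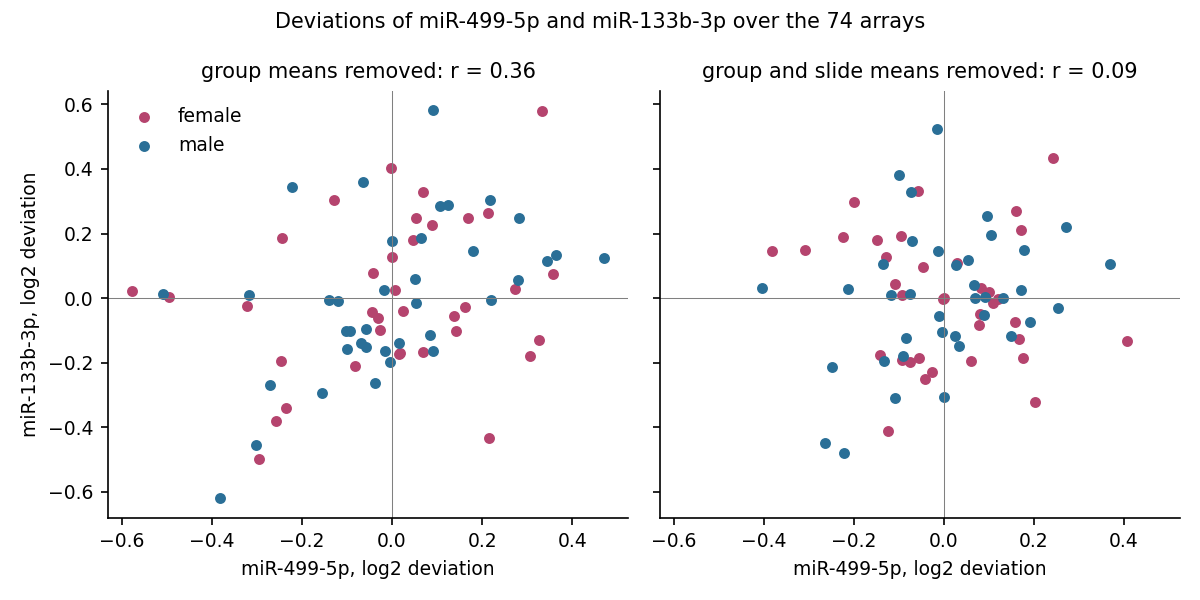
Deviation of each of the 74 arrays from its group mean for miR-499-5p (horizontal axis, log2) and miR-133b-3p (vertical axis, log2), females in red and males in blue, after removal of group means (left) and of group and slide means (right). The points rise together on the left (r = 0.361) and show little relation on the right (r = 0.0870).

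Over the 16 group means, taken as a description because groups share slides and the floor, miR-499-5p and miR-133b-3p had r = 0.143, and 56.2% of the pairs of miRNAs detected on every array were lower. MiR-208a-5p and miR-499-5p, both called as higher in females, had r = 0.606 over the 16 groups and 0.654 over the 8 female groups. Among the 9 females of 15 and 21 weeks, which all had both, r between single animals was -0.378, with the 2 ages pooled. That r leans on 15-week female replicate 5, with the lowest miR-208a-5p signal of the 9 (0.0583) and a miR-499-5p signal of 1.04. No direction between animals is read from it. MiR-206-3p had r = -0.0714 with miR-499-5p and -0.164 with miR-208a-5p over the 16 groups, and r = 0.532 with miR-133b-3p, for which rho was only 0.0551. Within a sex, miR-206-3p and miR-133b-3p had r = 0.701 (rho 0.495) over the 8 male groups and r = -0.599 (rho -0.791) over the 8 female groups. Most miR-206-3p values of females were at the floor.

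Of the 228 miRNAs that at least 50% of the arrays detected, those most like miR-499-5p between animals were miR-29c-3p (r = 0.738), miR-218a-5p (r = 0.720) and miR-200a-3p (r = 0.667). These r, and those of miR-133b-3p between animals below, were taken over 74 arrays after removal of group means but not of slide means. Over the 16 group means the miRNAs most like miR-499-5p were miR-345-5p (r = 0.947), miR-375-3p (r = 0.922) and miR-200a-3p (r = 0.881). MiR-375-3p was also called as lower in males at 2 weeks, by 0.73 on the log2 scale (adjusted p = 0.0245), and at 15 weeks, by 0.84 (adjusted p = 0.00530). MiR-29c-3p was called as lower in males at 2 weeks, by 1.02 (adjusted p = 3.22e-05). Of all 311 miRNAs, 3.86% were called at 2 weeks and 3.54% at 15 weeks. MiR-375-3p was picked because its group means follow those of miR-499-5p, so a shared sex direction can follow from that choice. The miRNAs most like miR-133b-3p between animals were miR-143-3p (r = 0.574), a miRNA of smooth muscle, miR-22-5p (r = 0.543) and miR-205 (r = 0.539). Over the 16 group means they were miR-505-3p (r = 0.644), miR-674-3p (r = 0.620) and miR-126a-5p (r = 0.605). Of these, miR-505-3p was called as higher in males at 21 weeks, by 0.71 on the log2 scale (adjusted p = 0.000564), where 4.82% of all 311 miRNAs were called. It was picked because its group means follow those of miR-133b-3p, which were highest in 21-week males. A higher male level at that age can follow from that choice.

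Other miRNAs linked to muscle or its differentiation but also made in other tissues were read from the same fits. Of 31 on the array 21 were expressed, and they gave 3 sex calls over the 8 ages, 1 each at 2, 21 and 78 weeks, where 3.86%, 4.82% and 6.75% of all 311 miRNAs were called. MiR-29b-3p was lower in males at 2 weeks by 0.98 (adjusted p = 0.000211), miR-22-5p higher in males at 21 weeks by 0.63 (adjusted p = 0.000254), and miR-23a-5p lower in males at 78 weeks by 1.48 (adjusted p = 0.0338), all on the log2 scale. Age calls were made for 12 of the 21 in females, of which 5 were higher and 7 lower at the older age of their widest pair, and for 14 in males, of which 8 were higher and 6 lower. Over all 311 miRNAs the shares with an age call were 36.7% in females and 45.3% in males. The median sex difference of the 21 was 0.10 at 21 weeks, against 0.05 over all 311 miRNAs, and -0.01 at 15 weeks, against -0.03.

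Markers of the cell types that a kidney sample can hold were set beside these results. Tubule miRNAs were present (11 of 13 expressed, 9 of them on every array). The 2 expressed smooth muscle markers, miR-143-3p and miR-145-5p, gave no sex call at any age. Their summed scaled signal was 7.95 to 11.1 in females and 8.62 to 10.6 in males at 15 weeks, and 10.4 to 11.3 in females and 9.91 to 10.8 in males at 21 weeks. Of the tubule markers miR-204-5p was called at 15 and 21 weeks, higher in males, and miR-192-5p at 104 weeks, lower in males, while the tubule sum was 92.1 to 104 in females and 81.3 to 93.4 in males at 15 weeks. Of the 5 expressed leukocyte markers 4 were called at 78 weeks, of which 3 were higher in males, and their sum was 3.26 to 3.90 in females and 4.25 to 7.42 in males. At 104 weeks 4 of them were called, all higher in males. Over all 311 miRNAs 6.75% were called at 78 weeks and 6.11% at 104 weeks. Of the 3 expressed erythroid markers 2 were called at 78 weeks, both higher in males, and the endothelial and neural markers gave no sex call at any age. The liver marker miR-122-5p was called as higher in males at 2 weeks, where the liver sum was 0.0778 to 0.108 in females and 0.398 to 23.8 in males. The part of these cell types in the sex differences of miR-499-5p, miR-208a-5p and miR-206-3p was not tested at any age. For heart and skeletal muscle the defining miRNAs are the members themselves, and both arms of miR-1 and miR-133a were undetected on every array.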

How the data were processed

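The authors hybridized kidney RNA of single animals to single-colour Agilent rat miRNA arrays and deposited the scanner output as intensities. Per the file headers, Feature Extraction had corrected for background and turned the 20 spots of each miRNA (on 2 or more probes) into a total gene signal with a detection mark, without normalization between arrays; undetected miRNAs were set to 0.1. The number of arrays per group limits the precision. Samples were grouped by the sex and age in the labels (titles and sex fields name males and females, as the study's methods do, although the husbandry text attached to every sample mentions females alone), and the arrays of a group came from independent animals. A table of normalized values that the authors also deposited was not used, because many of its columns held the array of another sample than the one they name; gene names come from the scanner output.

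Each signal was divided by its array's 75th percentile over the 311 expressed miRNAs, as in the study's methods, raised to a common floor of 0.0171 (the lowest detected signal, 1.39, over the smallest percentile) and log2-transformed; fold changes of low miRNAs are understated at this floor. Limma 3.58.1 (R 4.3.3, with statmod 1.5.0) fitted 16 group means for sex and interaction and each sex alone for age. An age call needed, beside the adjusted p, some pair of ages at least 1.5-fold apart with p below 0.05 before adjustment. Correlations used 100000 permutations within groups, and tests on probe totals were exact (Python 3.11.15, scipy 1.17.1, numpy 2.4.6, pandas 2.3.3). The fits were tested on simulated data. The members, lists and tests were chosen with earlier results of these data known. All 14 members are named, and for each member detected on at least 50% of arrays the 3 miRNAs most correlated with it, between animals and over group means; other miRNAs come from the marker and muscle lists.

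Alternatives were the floor before scaling or at the median array, other percentiles, quantile normalization, normexp with an offset of 50 (on median spot signals), outlier spots left out, filters, slide or replicate number as a block, the methods' t-test and ANOVA, subsets of ages, no fold threshold and each array left out. Scan day as a block, both probes summed, the probe totals' exact tests, the interaction without 2-week animals, another percentile rule and the co-variation within a sex were chosen after seeing the data. The replicate numbers did not pair the samples: deviations of same-numbered arrays of an age correlated at -0.0513 on average (28 pairs), and those of other numbers at 0.0116 (143 pairs). No 2 arrays were identical, and arrays of a group correlated at 0.951 to 0.999.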

Additional observations from a re-analysis of the deposited data

Results flagged for a closer look

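Single arrays stood apart from their group in 9 of the 43 groups of a detected member that could be tested. Chance gives about 1 in 20, but that rate does not apply to 5 of the 9, in which the array was the only detected one and all others shared the floor, so that it had to stand apart. For miR-206-3p these were, as scaled signals, female replicate 3 of 6 weeks (0.0218), male replicate 3 of 8 weeks (0.0273), female replicate 3 of 15 weeks (0.0212) and female replicate 3 of 78 weeks (0.0205), each higher than the rest of its group, and male replicate 4 of 15 weeks, the only undetected male of its age. Its 0.00105 is the placeholder of 0.1 after scaling, while the brighter miR-206-3p probe on that array read 0.0360, the highest of the males of that age.

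For miR-208a-5p the arrays were female replicate 2 of 8 weeks (0.0465) and female replicate 6 of 78 weeks (0.0382), each the only detected array of its group and each read from 1 probe alone. The third was female replicate 5 of 15 weeks (0.0583), the lowest of 5 detected ones. For miR-499-5p it was female replicate 3 of 2 weeks (0.178), the lowest of 4.

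The sex difference also differed between ages by limma's interaction test for miR-208a-5p (adjusted p = 1.06e-21), miR-206-3p (adjusted p = 5.77e-08) and miR-499-5p (adjusted p = 3.98e-05). For miR-208a-5p and miR-206-3p most groups were at the floor, where these p-values measure no spread.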

How the results depend on the processing

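The 7 sex calls of the members became 2 after normexp with an offset of 50, and the 5 age calls became 1. Under normexp the miR-208a-5p difference shrank to -0.29 at 15 weeks and -0.44 at 21 weeks, and that of miR-206-3p to 0.12 at 21 weeks. None of these was then called, and the miR-499-5p calls at 2 weeks (-0.44) and 78 weeks (-0.48) were lost as well. The other settings gave 6 to 10 sex calls. Age calls numbered 2 within 2 to 8 weeks, 2 within 15 to 104 weeks and 3 without the 2-week animals. The correlation of miR-499-5p with miR-133b-3p (0.361) was 0.0870 with slide means removed, 0.230 over 2 to 8 weeks and 0.244 in females. The 3 sex calls of the muscle-associated list became 16 with no fold threshold. No share over all 311 miRNAs without that threshold stands beside this count, so it is no result about the list. With the replicate number as a block the members had 7 sex calls, 4 age calls and 3 interactions. Leaving out 1 array gave 6 to 8 sex calls, 4 to 5 age calls and 3 interactions. No called difference of the members changed direction under the settings that were run. Among uncalled ones, miR-206-3p at 6 weeks went from -0.07 to 0.67, which was called, and miR-133b-3p from 0.00247 to -0.0105 at 5 weeks and from 0.05 to -0.02 at 104 weeks, when both probes were summed on every array.

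The 15-week difference of miR-206-3p was also called with the floor before scaling (1.13), the floor at the median array (0.93), quantile normalization (1.31), outlier spots left out (0.82), both probes summed (0.86) and no fold threshold. The 2-week call of miR-499-5p was lost with the percentile over all miRNAs of the array (-0.60, adjusted p = 0.0584), outlier spots left out (-0.53), separate fits for each age (adjusted p = 0.0621) and the methods' t-test (adjusted p = 0.0834). The causes were not tested. Slide as a fixed block could not be fitted for age in males. Signals near the detection limit limit what can be said of miR-206-3p.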
